A study of Neurospora crassa with 2 samples.

Results

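The genes described here encode the machinery of the vacuole, the endosomes and autophagy in *Neurospora crassa*. They were chosen by the words of the annotation in the deposited table: vacuol, V-type, autophag, endosom, ESCRT, clathrin, endocyt, retromer or sorting nexin. Of the 67 genes that met these words, 3 were left out because their annotation also held a word for a protease, a kinase, a SNARE, ubiquitin or iron. This left 64 of the 9730 genes of the table. The words use no expression value, though earlier results of these data were known when the genes were chosen. The genes were grouped by role into 14 subunits of the vacuolar ATPase (V-ATPase), 7 autophagy genes, 23 genes of ESCRT and other vacuolar sorting, 7 of retromer and the sorting nexins, 7 of clathrin and the endosomal membrane, and 6 vacuolar transporters and other vacuolar proteins.

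The fungal vacuole is the acidic compartment in which the cell degrades proteins and stores polyphosphate, basic amino acids and calcium. The V-ATPase pumps protons into it, and the proton gradient drives the uptake of the stored compounds. Cargo reaches the vacuole along several routes: endocytosis and clathrin-coated vesicles lead to endosomes, the ESCRT complexes sort membrane proteins into the vesicles inside them, tethering complexes fuse endosomes with the vacuole, and retromer returns sorting receptors to the Golgi. Autophagy delivers cytoplasm to the vacuole inside a double membrane that carries the small protein Atg8.

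The study grew 2 strains of *N. crassa* and sequenced the total RNA of their mycelia, with 1 library per strain. Δ*gul-1* lacks *gul-1* (NCU01197), whose product is an RNA-binding protein, and came from a genome-wide deletion collection. WT is the wild type. Both were started from conidia in medium with Avicel (crystalline cellulose) and yeast extract and grown for 3 days at 25 °C in constant light. The comparison asked which transcripts differed in a strain that grows as pellets in liquid culture.

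The table held 20341292 reads assigned to genes for Δ*gul-1* and 20461987 for WT. *gul-1*, on chromosome V from 3209437 to 3214882, had 304 reads in Δ*gul-1* and 21537 in WT, so that the libraries matched their labels. Levels are given as RPKM (reads per kilobase of exon scaled to the total of assigned reads), which allows genes of different length to be set side by side. Each ratio is Δ*gul-1* over WT, followed by its exact 95% counting interval. With 1 library per strain there was no estimate of the spread between cultures. No test was therefore made, and the intervals cover counting error only. The libraries came from whole cultures, in which fewer cells of a type and less RNA per cell cannot be told apart. The 14 marker genes of conidia and their formation, which include genes annotated as regulators of conidiation, summed to 1675 RPKM in Δ*gul-1* and 7426 RPKM in WT. This difference was made by *eas*, without which they summed to 1506 RPKM in Δ*gul-1* and 1633 RPKM in WT. Of these 14 genes, 7 had a ratio above 1, such as *con-6* at 2.06, and 7 below, such as *fl* at 0.403. The 4 markers of sexual tissue summed to 1133 RPKM in Δ*gul-1* and 252.9 RPKM in WT, but without *ccg-4* to 42.1 RPKM in Δ*gul-1* and 148.1 RPKM in WT, and 3 of the 4 had a ratio below 1. None of these markers was at 0, and their part in the results below was not tested.

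All 64 genes were expressed in both libraries, and none had fewer than 212 reads. Together they took 1.03% of the assigned reads in Δ*gul-1* and 0.951% in WT. Their median level was 50.1 RPKM in Δ*gul-1* and 44.8 RPKM in WT, against medians over all genes of 15.97 RPKM in Δ*gul-1* and 14.3 RPKM in WT. The lowest of them, the gene for autophagy protein 16, still stood at the 33.1 percentile of all genes in Δ*gul-1* and the 30.6 percentile in WT. A level above 20 RPKM in at least 1 library, the floor used for the comparison, was reached by 55 of the 64 genes (85.9%) and by 4409 of all genes (45.3%). 1 gene, that for vacuolar transporter chaperone 4, passed it through WT alone.

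**Figure D1:**
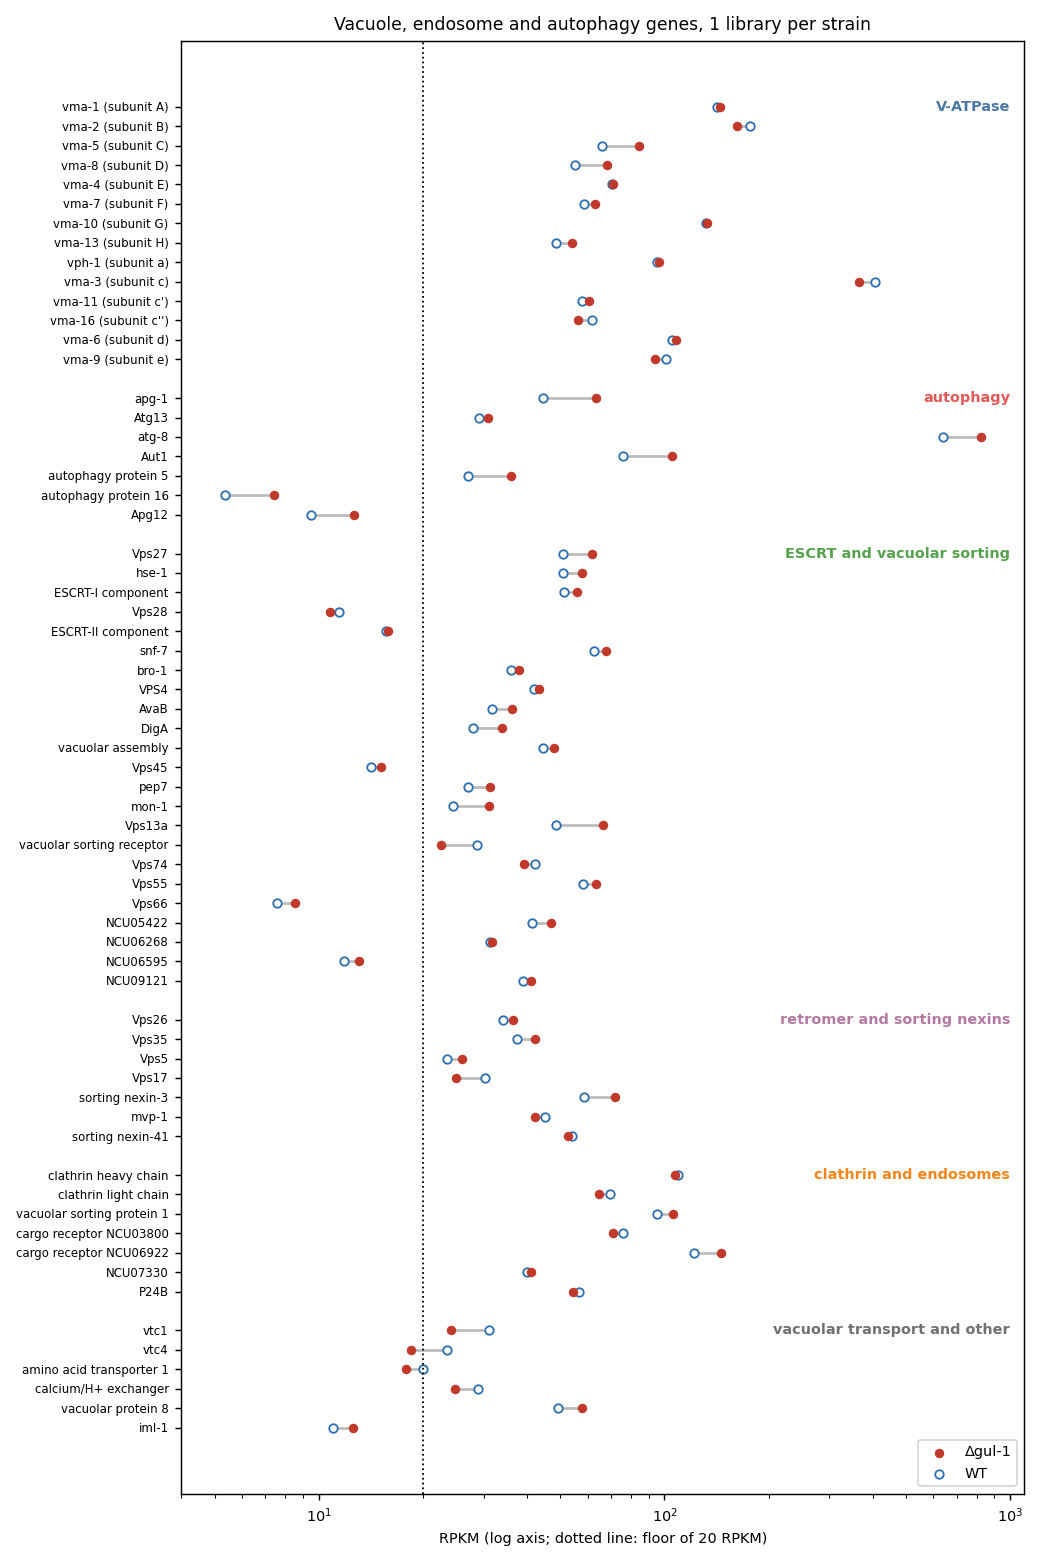
RPKM of each of the 64 genes in Δ*gul-1* (filled points) and WT (open points) on a log axis, grouped by role, with a dotted line at the floor of 20 RPKM. *atg-8* stands highest at 825.2 RPKM in Δ*gul-1* and 638.5 RPKM in WT, and the 7 autophagy genes all have their Δ*gul-1* point to the right of their WT point.

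The genes differed little between the strains. None of the 55 genes past the floor differed by 2-fold in either direction. Over the whole table, 3.88% of the genes past the floor were higher in Δ*gul-1* by 2-fold or more, and 2.63% were lower by as much. At 1.5-fold the count was again 0 in both directions, against 10.8% higher and 5.76% lower among all genes. With no floor, none of the 64 genes reached 1.5-fold either. The ratios past the floor ran only between 0.775 and 1.42. Their quartiles lay 0.25 apart on the log2 scale, against 0.42 for all genes.

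The median ratio of the 55 genes was 1.06 (log2 0.09), close to the 1.08 (log2 0.11) of all genes past the floor. This common offset depended on how the libraries were scaled. TMM scaling, which sets the libraries equal over the bulk of genes, moved every log2 ratio by -0.15 and the median of all genes to -0.04. Ratios on the deposited scale between 1 and 1.11 therefore lay below 1 under TMM. The 55 genes stayed 0.02 below the median of all genes on the log2 scale under each of the 4 scalings. Genes are for this reason also described by whether their counting interval lay wholly above or below the median ratio of all genes, a position that no scaling changes.

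By that measure, 17 of the 55 genes (30.9%) lay above the median of all genes, where 38.1% of all genes did. Another 20 (36.4%) lay below it, where 38.7% of all genes did. The remaining 18 had an interval that spanned it. At a lower fold of 1.25, chosen after no gene had reached 1.5-fold, 7 genes (12.7%) were higher in Δ*gul-1* against 23.8% of all genes, and 3 (5.45%) were lower against 11.5% of all genes. With TMM scaling these became 1 higher against 14.9% of all genes, and 5 lower against 19.5%. The shares were at or under those of all genes throughout. The 1.25-fold genes on the deposited scale were *apg-1*, *atg-8*, the genes for Aut1, autophagy protein 5 and Vps13a, *mon-1* and *vma-5* on the higher side, and the genes for vacuolar transporter chaperones 1 and 4 and a vacuolar sorting receptor on the lower side. Of these, the chaperone 4 gene passed the floor only through WT, the library in which it was high.

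**Figure D2:**
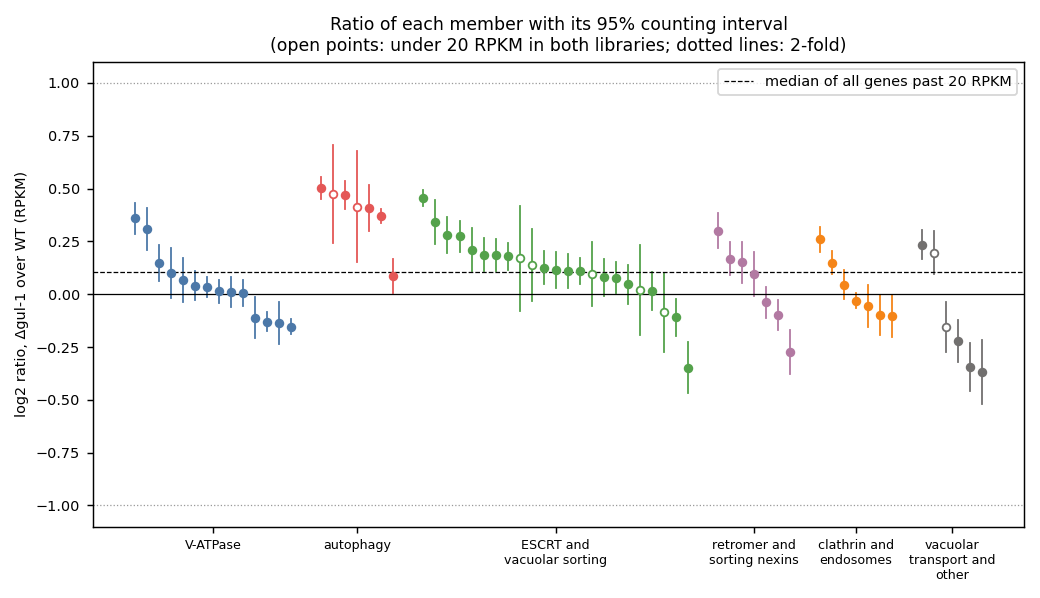
log2 ratio of Δ*gul-1* over WT for each gene, sorted within its role group, with the 95% counting interval as a bar (open points are under 20 RPKM in both libraries). Every point lies within the dotted lines at 2-fold, 6 of the 7 autophagy genes have their whole bar above the dashed median of all genes (log2 0.11), and the 4 transporter genes lie below 0.

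The autophagy genes had the highest median ratio of the 6 role groups. The 5 of them past the floor had a median ratio of 1.33 (log2 0.41), and all 7, with those under the floor, had the same rounded median of 1.33. The counting interval lay above the median of all genes for 4 of the 5 past the floor, against 38.1% of all genes past it, and for 6 of the 7. Their summed level was 1081 RPKM in Δ*gul-1* and 830.1 RPKM in WT. Under TMM scaling the median ratio of the 5 was 1.20, and 4 of the 5 stayed above 1.

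Autophagy starts with the Atg1 kinase and its partner Atg13. *apg-1* (NCU00188, chromosome III, 2933803 to 2939195), the counterpart of yeast *ATG1*, had 6711 reads (63.2 RPKM) in Δ*gul-1* and 4765 reads (44.6 RPKM) in WT. Its ratio of 1.42 (1.37 to 1.47) was the highest among the 64 genes, and 13.7% of all genes past the floor had a ratio as high. Among the 55 genes past the floor it was also the only gene at least 1.25-fold higher under TMM scaling, with a ratio of 1.277. The gene for Atg13 (NCU04840, chromosome VI, 1017917 to 1022176) had 2601 reads (30.9 RPKM) in Δ*gul-1* and 2462 reads (29.1 RPKM) in WT. With a ratio of 1.06 (1.01 to 1.12) it was the one autophagy gene whose interval spanned the median of all genes, and its ratio was 0.958 under TMM.

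Atg8 is joined to a lipid of the autophagosome membrane by enzymes related to those of the ubiquitin system. *atg-8* (NCU01545, chromosome II, 3124675 to 3126054) was the most abundant of the 64 genes in both libraries. It had 18783 reads (825.2 RPKM) in Δ*gul-1* and 14619 reads (638.5 RPKM) in WT, which placed it at the 99.4 percentile of all genes in Δ*gul-1* and the 99.2 percentile in WT. The ratio was 1.29 (1.27 to 1.32). The gene made up most of the summed level of the autophagy group in both strains. The gene annotated Aut1 (NCU01955, chromosome I, 1873289 to 1875362), the name in yeast of the Atg3 enzyme that joins Atg8 to the lipid, had 4133 reads (105.2 RPKM) in Δ*gul-1* and 3002 reads (76.0 RPKM) in WT. Its ratio was 1.38 (1.32 to 1.45). In *atg-8* and the Aut1 gene the interval lay clear of the median of all genes, and the ratios under TMM were 1.165 for *atg-8* and 1.248 for the Aut1 gene.

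Another conjugate, of Atg12 with Atg5 and Atg16, helps that reaction in yeast. Its genes had lower levels than *atg-8* by far. The gene for autophagy protein 5 (NCU04662, chromosome V, 1289745 to 1292131) had 1558 reads (36.0 RPKM) in Δ*gul-1* and 1181 reads (27.1 RPKM) in WT, with a ratio of 1.33 (1.23 to 1.43). The genes for autophagy protein 16 and Apg12 were under the floor. That of autophagy protein 16 (NCU06267) had 370 reads (7.43 RPKM) in Δ*gul-1* and 268 reads (5.35 RPKM) in WT, and a ratio of 1.39 (1.18 to 1.63). Apg12 (NCU10049) had 281 reads (12.7 RPKM) in Δ*gul-1* and 212 reads (9.51 RPKM) in WT, and a ratio of 1.33 (1.11 to 1.60). All 3 genes of this conjugate had an interval above the median of all genes, where 38.1% of all genes past the floor did. NCU06267 and NCU10049 each overlap another gene in the RefSeq annotation, and NCU01955 overlaps one too.

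5 further autophagy genes lay outside the word rule, 4 because their annotation gives an ATG number without the word autophagy and 1 because it holds the word ubiquitin. They were looked up after the values of the others had been seen. Each of the 5 had an interval above the median of all genes, where 38.1% of all genes past the floor did. Each also stayed above 1 under TMM scaling. ATG9 (NCU02422), a membrane protein of the vesicles that seed the autophagosome, had 50.3 RPKM in Δ*gul-1* and 38.9 RPKM in WT, a ratio of 1.29 (1.23 to 1.36). ATG18 (NCU03441), which in yeast binds a phosphoinositide of the forming membrane, had 41.2 RPKM in Δ*gul-1* and 30.4 RPKM in WT, a ratio of 1.35 (1.28 to 1.44). The ubiquitin-activating enzyme annotated ApgG (NCU06672) had 42.2 RPKM in Δ*gul-1* and 32.4 RPKM in WT, a ratio of 1.30 (1.23 to 1.38). These 3 were close in ratio to *atg-8* and the gene for autophagy protein 5. The genes of ATG2 (NCU08926), a lipid transfer protein in yeast, and of ATG4 (NCU02433), the protease that trims Atg8 in yeast, were nearer to the median of all genes, with ratios of 1.18 (1.14 to 1.23) and 1.16 (1.09 to 1.23).

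**Figure D3:**
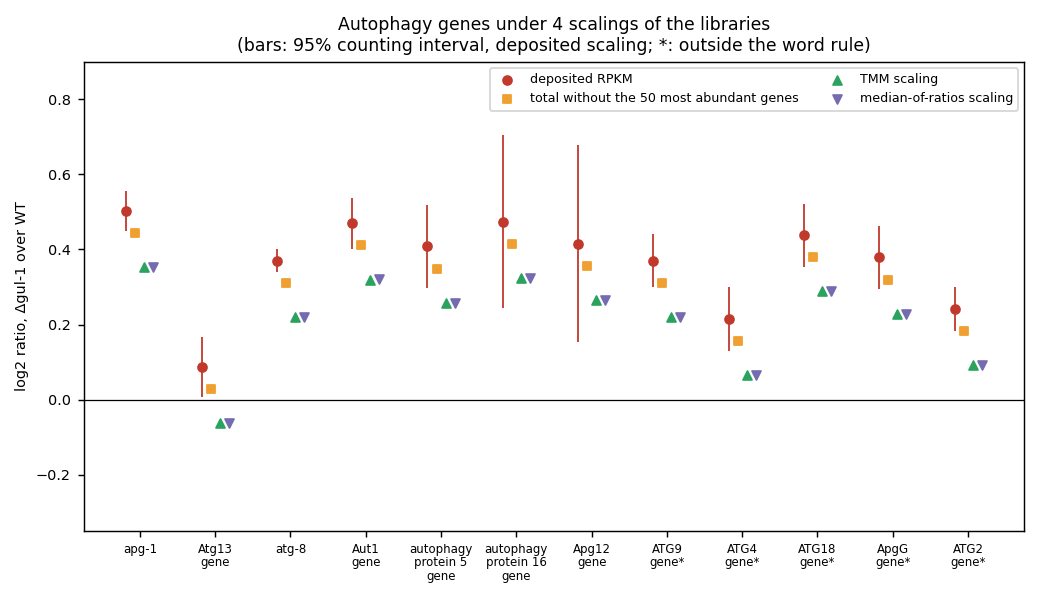
log2 ratio of Δ*gul-1* over WT for the 7 autophagy genes and the 5 named outside the rule (asterisks) under 4 scalings of the libraries, with the 95% counting interval of the deposited scaling as a bar. The Atg13 gene crosses 0 with TMM and median-of-ratios scaling, and every other gene drawn stays above 0 under all 4.

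The V-ATPase genes were the opposite case: many reads, and levels nearly equal between the strains. The rule found a gene for each of the 14 subunits known in fungi, and all 14 passed the floor. They summed to 1560 RPKM in Δ*gul-1* and 1577 RPKM in WT. The median ratio was 1.02 (log2 0.02), with 8 intervals below the median of all genes, 2 above and 4 across it. Of all genes past the floor, 38.7% lay below it and 38.1% above. Under TMM scaling the median ratio was 0.917, and 12 of the 14 were below 1.

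The enzyme has a V1 sector in the cytoplasm, which hydrolyses ATP, and a Vo sector in the membrane, which carries the protons. The V1 genes summed to 780.0 RPKM in Δ*gul-1* and 749.4 RPKM in WT. The Vo genes summed to 780.5 RPKM in Δ*gul-1* and 827.8 RPKM in WT. *vma-1*, for the catalytic subunit A, had 145.2 RPKM in Δ*gul-1* and 141.7 RPKM in WT, a ratio of 1.02 (0.992 to 1.06). *vma-2*, for the nucleotide-binding subunit B, had 161.8 RPKM in Δ*gul-1* and 177.0 RPKM in WT, a ratio of 0.914 (0.885 to 0.944). The A and B subunits alternate in the same ring, and the B gene was the more abundant in both libraries.

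The highest ratios were those of *vma-5*, for subunit C, which links the sectors, and *vma-8*, for subunit D of the rotor. *vma-5* (NCU09897, chromosome I, 3993967 to 3996177) had 3488 reads (84.5 RPKM) in Δ*gul-1* and 2734 reads (65.8 RPKM) in WT, with a ratio of 1.28 (1.22 to 1.35). *vma-8* (NCU08035, chromosome IV, 3976674 to 3978357) had 1838 reads (68.1 RPKM) in Δ*gul-1* and 1493 reads (55.0 RPKM) in WT, with a ratio of 1.24 (1.16 to 1.33). Both stayed above 1 under TMM scaling, and they were the only V-ATPase genes that did. Each overlaps another gene in RefSeq. The neighbour of *vma-5* (NCU09896) had a ratio of 0.921 (0.798 to 1.06), and that of *vma-8* (NCU08034) a ratio of 1.15 (1.05 to 1.25).

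The lowest ratio belonged to the most abundant V-ATPase gene, *vma-3* (NCU01332, chromosome V, 3684275 to 3686333), for the proteolipid subunit c. Several copies of this subunit form the ring of the rotor together with its relatives c' and c''. *vma-3* had 11659 reads (365.8 RPKM) in Δ*gul-1* and 13044 reads (406.8 RPKM) in WT, with a ratio of 0.899 (0.877 to 0.922). It made up 23.4% of the summed V-ATPase level in Δ*gul-1* and 25.8% in WT. Subunit c' (*vma-11*) had a ratio of 1.05 (0.976 to 1.13) at 60.6 RPKM in Δ*gul-1* and 57.8 RPKM in WT, and c'' (*vma-16*) one of 0.909 (0.849 to 0.974) at 56.2 RPKM in Δ*gul-1* and 61.8 RPKM in WT. The gene of the subunit present in several copies thus stood far above those of its relatives in both strains.

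The remaining subunits stayed close to 1. Subunit E (*vma-4*, ratio 1.00), G (*vma-10*, 1.01), a (*vph-1*, 1.01) and d (*vma-6*, 1.03) had intervals that included 1 on the deposited scale. Those of E, G and a lay wholly below the median of all genes. Subunit H (*vma-13*) had 53.9 RPKM in Δ*gul-1* and 48.7 RPKM in WT, a ratio of 1.11 (1.04 to 1.17). Subunit F (*vma-7*) had a ratio of 1.07 and the small membrane subunit e (*vma-9*) one of 0.926 (0.866 to 0.991). The order of levels among the 14 genes was kept for the most part: 8 held the same rank in both libraries, 4 moved by 1, and *vma-8* and *vma-16* changed places between rank 10 and rank 13. The span between the highest and the lowest subunit gene was 6.79-fold in Δ*gul-1* and 8.36-fold in WT.

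**Figure D4:**
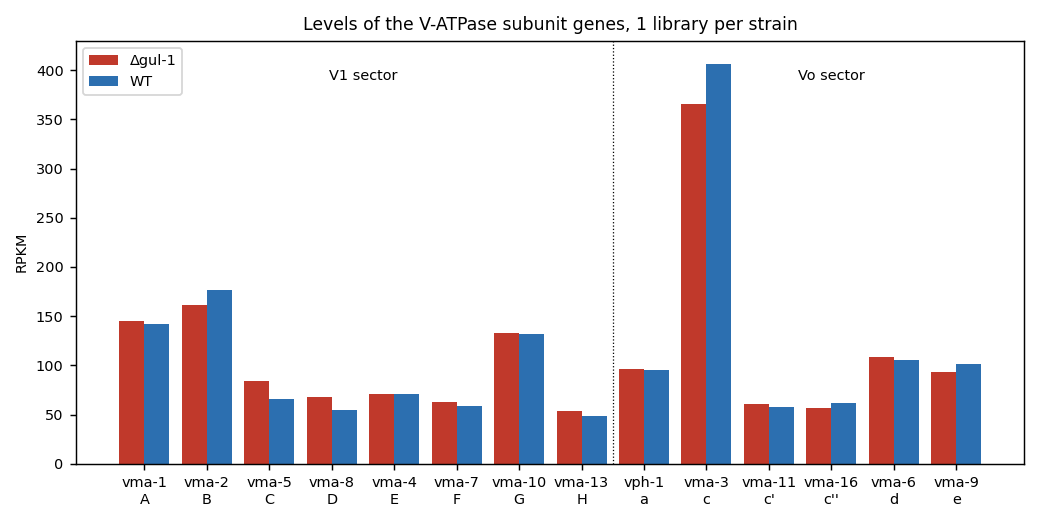
RPKM of the 14 V-ATPase subunit genes in Δ*gul-1* (left bar of each pair) and WT (right bar), 1 library per strain, with the V1 sector left of the dotted line and the Vo sector right of it. *vma-3* stands far above the rest at 365.8 RPKM in Δ*gul-1* and 406.8 RPKM in WT, and *vma-5* and *vma-8* are the pairs with the tallest Δ*gul-1* bar relative to WT.

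The 23 genes of ESCRT and vacuolar sorting had 18 members past the floor, with a median ratio of 1.09 (log2 0.12). The intervals of 8 lay above the median of all genes, 2 below and 8 across it, against 38.1% above and 38.7% below among all genes past the floor. Summed levels were 878.3 RPKM in Δ*gul-1* and 798.6 RPKM in WT. The median ratio under TMM scaling was 0.980, so the direction of the group as a whole depended on the scaling.

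The gene for Vps13a (NCU05837, chromosome VII, 3997660 to 4008544) stood out among them. Its yeast relative is a long protein that moves lipids between membranes where organelles touch. It had 14458 reads (66.4 RPKM) in Δ*gul-1* and 10606 reads (48.4 RPKM) in WT, with a ratio of 1.37 (1.34 to 1.41) and a ratio of 1.24 under TMM scaling. It overlaps no other gene in RefSeq. Its ratio was within the range of the autophagy genes.

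Of the ESCRT genes, 8 in number with ratios between 0.942 and 1.21, those for Vps27 and its partner *hse-1* had the highest ratios. The gene for Vps28, under the floor, had the lowest. The gene for Vps27 (NCU04015), which in yeast recognises ubiquitinated cargo, had 61.5 RPKM in Δ*gul-1* and 50.9 RPKM in WT, a ratio of 1.21 (1.15 to 1.27). Its partner in that complex, *hse-1* (NCU04841), had a ratio of 1.13 (1.08 to 1.18). *snf-7* (NCU01282), whose product forms the filaments that bud the vesicles, was the most abundant gene of the sorting group at 67.5 RPKM in Δ*gul-1* and 62.6 RPKM in WT, with a ratio of 1.08 (1.02 to 1.14). *bro-1*, for a partner of those filaments in yeast, had a ratio of 1.06, and VPS4 (NCU06942), the ATPase that takes them apart, of 1.03. Only the Vps27 gene and *hse-1* had an interval above the median of all genes. Under TMM scaling *snf-7*, *bro-1* and VPS4 lay below 1.

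The tethering and fusion genes, which bring endosomes to the vacuole, had 5 of 6 members past the floor and a median ratio of 1.16. All 6 had ratios between 1.07 and 1.27, and 4 had an interval above the median of all genes, where 38.1% of all genes past the floor did. *mon-1* (NCU09220, chromosome I, 5892660 to 5895339), whose yeast counterpart activates the Rab protein Ypt7, had 1691 reads (31.0 RPKM) in Δ*gul-1* and 1342 reads (24.5 RPKM) in WT, with a ratio of 1.27 (1.18 to 1.36). The gene for DigA (NCU06183), the *Aspergillus nidulans* relative of yeast Vps18, had 33.9 RPKM in Δ*gul-1* and 27.9 RPKM in WT, a ratio of 1.22 (1.15 to 1.29). The gene for AvaB (NCU01539), the *A. nidulans* relative of yeast Vps39, had a ratio of 1.14 (1.08 to 1.20), and *pep7* (NCU07584), of an endosomal fusion factor in yeast, one of 1.16 (1.08 to 1.24). These 4 genes stayed above 1 under TMM scaling. The gene for a vacuolar assembly protein (NCU05902) had a ratio of 1.08 (1.03 to 1.13), across the median of all genes.

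A single sorting gene was 1.25-fold lower. The gene annotated as a vacuolar sorting receptor (NCU08761, chromosome III, 5239371 to 5241715) had 994 reads (22.5 RPKM) in Δ*gul-1* and 1272 reads (28.7 RPKM) in WT, with a ratio of 0.786 (0.723 to 0.855). The gene for Vps74 (NCU06091), which in yeast keeps enzymes of glycosylation in the Golgi, had 39.2 RPKM in Δ*gul-1* and 42.2 RPKM in WT, a ratio of 0.927 (0.873 to 0.985). These were the 2 sorting genes past the floor with an interval below the median of all genes. The 5 sorting genes under the floor were those for Vps28 (459 reads in Δ*gul-1* and 490 in WT), an ESCRT-II component (368 in Δ*gul-1* and 365 in WT), Vps45 (751 in Δ*gul-1* and 707 in WT), Vps66 (285 in Δ*gul-1* and 255 in WT) and NCU06595 (600 in Δ*gul-1* and 548 in WT). In all 5 the interval of the ratio on the deposited scale included 1, and that of Vps28 lay below the median of all genes. The other sorting genes past the floor, those for an ESCRT-I component (NCU05753), Vps55, NCU05422, NCU06268 and NCU09121, had ratios between 1.01 and 1.14, and of these only NCU05422 lay above the median of all genes (1.08 to 1.20).

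Retromer returns receptors from endosomes to the Golgi, and the sorting nexins bend or coat the membrane it acts on. All 7 of these genes passed the floor, with a median ratio of 1.07. Summed levels were 296.1 RPKM in Δ*gul-1* and 282.6 RPKM in WT. The gene for the cargo-binding subunit Vps35 (NCU06284) had 42.2 RPKM in Δ*gul-1* and 37.5 RPKM in WT, a ratio of 1.12 (1.06 to 1.19). That of its partner Vps26 (NCU02743) had a ratio of 1.07 (0.994 to 1.15), and both were across the median of all genes. The nexin subunits of retromer, which act as a pair in yeast, lay apart. The gene for Vps5 (NCU04137) had 26.0 RPKM in Δ*gul-1* and 23.4 RPKM in WT, a ratio of 1.11 (1.04 to 1.19). The gene for Vps17 (NCU07020, chromosome IV, 4931347 to 4934214) had 1390 reads (25.0 RPKM) in Δ*gul-1* and 1691 reads (30.2 RPKM) in WT, a ratio of 0.827 (0.770 to 0.888). The intervals of the 2 genes did not overlap, and this difference within the pair does not depend on the scaling. In RefSeq the Vps5 gene overlaps another gene and the Vps17 gene does not. Any bearing of this on the difference was not tested.

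The sorting nexins proper also diverged. The gene for sorting nexin-3 (NCU01914, chromosome I, 2044910 to 2047027), which in yeast picks cargo for retromer, was the most abundant of the group with 2557 reads (72.1 RPKM) in Δ*gul-1* and 2088 reads (58.5 RPKM) in WT. Its ratio was 1.23 (1.16 to 1.31). *mvp-1* (NCU05715) had 42.1 RPKM in Δ*gul-1* and 45.1 RPKM in WT, a ratio of 0.934 (0.889 to 0.982), and the gene for sorting nexin-41 (NCU06259) had a ratio of 0.973 (0.924 to 1.02). Sorting nexin-3 was thus the only gene of the group above the median of all genes, where 38.1% of all genes past the floor lay. Vps17, *mvp-1* and sorting nexin-41 lay below it, where 38.7% did. These 3 genes overlap no other gene in RefSeq, and their median log2 ratio was -0.099. The genes for Vps26, Vps35, Vps5 and sorting nexin-3 each overlap one, so their reads may include reads of the partner. The part of the overlaps in these differences was not tested.

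The genes of clathrin and the endosomal membrane were abundant and near equal. All 7 passed the floor, and their median ratio was 0.979 (log2 -0.03). The intervals of 4 lay below the median of all genes, 1 above and 2 across it. Of all genes past the floor, 38.7% lay below it and 38.1% above. The 3 genes without an overlapping gene in RefSeq had a median log2 ratio of 0.15. Summed levels were 589.5 RPKM in Δ*gul-1* and 568.3 RPKM in WT. The clathrin heavy chain gene (NCU02510), for the main part of the coat, had 107.1 RPKM in Δ*gul-1* and 109.5 RPKM in WT, a ratio of 0.979 (0.956 to 1.00). The light chain gene (NCU04115) had 64.7 RPKM in Δ*gul-1* and 69.6 RPKM in WT, a ratio of 0.930 (0.868 to 0.997). Both chains lay below the median of all genes, and both genes overlap another gene in RefSeq. The gene annotated vacuolar sorting protein 1 (NCU04100), a dynamin-like protein in yeast, had 105.5 RPKM in Δ*gul-1* and 95.2 RPKM in WT, a ratio of 1.11 (1.07 to 1.15) that spanned the median.

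Of the 2 genes annotated as endosomal cargo receptors, NCU06922 was the most abundant of the group and the only one above the median of all genes. It had 4838 reads (145.6 RPKM) in Δ*gul-1* and 4066 reads (121.6 RPKM) in WT, with a ratio of 1.20 (1.15 to 1.25). NCU03800 went the other way, with 70.9 RPKM in Δ*gul-1* and 75.9 RPKM in WT, a ratio of 0.934 (0.875 to 0.997). The genes for an endosomal integral membrane protein (NCU07330) and for P24B (NCU08339) had ratios of 1.03 (0.984 to 1.08) and 0.962 (0.899 to 1.03), within counting error of equal levels on the deposited scale. The interval of P24B lay below the median of all genes.

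The group of vacuolar transporters and other vacuolar proteins had the lowest median ratio, 0.877 over all its 6 genes, with the transporters on the low side. All 4 transporter genes had a ratio below 1 on the deposited scale, and the other scalings only lower the ratios. Their intervals all lay below the median of all genes, where 38.7% of all genes past the floor did. The median ratio of the 4 was 0.823 (log2 -0.28). Their summed level was 85.2 RPKM in Δ*gul-1* and 103.3 RPKM in WT. The members of the VTC complex, which in yeast makes polyphosphate and passes it into the vacuole, had the lowest ratios of the 4. The gene for vacuolar transporter chaperone 1 (NCU03883, chromosome VI, 2028482 to 2029864) had 644 reads (24.1 RPKM) in Δ*gul-1* and 836 reads (31.0 RPKM) in WT, with a ratio of 0.775 (0.698 to 0.860). That for chaperone 4 (NCU08110, chromosome I, 305342 to 308567), the catalytic subunit in yeast, had 1130 reads (18.4 RPKM) in Δ*gul-1* and 1443 reads (23.4 RPKM) in WT, with a ratio of 0.788 (0.728 to 0.852). The 2 genes lie on different chromosomes, overlap no other gene and had nearly the same ratio, though chaperone 4 passed the floor through WT alone. Of all genes past the floor, 10.3% had a ratio as low as that of chaperone 1.

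The other transporters followed in the same direction. The gene for a calcium/H+ exchanger (NCU07711, chromosome IV, 2115889 to 2119317), which uses the proton gradient to store calcium, had 1496 reads (24.8 RPKM) in Δ*gul-1* and 1755 reads (28.9 RPKM) in WT, with a ratio of 0.857 (0.800 to 0.919). The gene for vacuolar amino acid transporter 1 (NCU06231), under the floor, had 1113 reads (17.92 RPKM) in Δ*gul-1* and 1248 reads (19.98 RPKM) in WT, with a ratio of 0.897 (0.827 to 0.973). The last 2 genes were on the other side. The gene for vacuolar protein 8 (NCU01470), which in yeast anchors vacuoles for inheritance and binds Atg13, had 57.9 RPKM in Δ*gul-1* and 49.2 RPKM in WT, a ratio of 1.18 (1.12 to 1.24). *iml-1* (NCU07710), whose yeast counterpart restrains the kinase complex TORC1 at the vacuole, was under the floor with 1641 reads in Δ*gul-1* and 1440 in WT, a ratio of 1.15 (1.07 to 1.23).

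The genes were spread over all 7 chromosomes, with 6 to 13 on each. There were 3 pairs of direct neighbours: the genes for autophagy protein 16 and the sorting protein NCU06268 (181 bases apart), the calcium/H+ exchanger gene and *iml-1* (635 bases), and the Atg13 gene and *hse-1* (607 bases). Neighbours did not share their ratio in the first pair (1.39 and 1.01) or in the pair of the calcium/H+ exchanger and *iml-1* (0.857 and 1.15). The pair of Atg13 and *hse-1* had ratios of 1.06 and 1.13. RefSeq has another gene overlapping 31 of the 64 genes, and the sources used here do not say whether counting was by strand, so their reads may include reads of the partner. Of the 33 genes without such a partner, 30 passed the floor, and 5 were 1.25-fold higher (23.8% of all genes past the floor) and 3 lower (11.5% of all genes). Of the 4 autophagy genes without a partner, 3 had an interval above the median of all genes, where 38.1% of all genes past the floor did.

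Genes of the same pathways that the rule did not take were read as lists. All 3 genes of vacuolar proteases passed the floor and none reached 1.5-fold, against 10.8% of all genes higher and 5.76% lower. Carboxypeptidase Y (NCU00477) had 501.5 RPKM in Δ*gul-1* and 400.3 RPKM in WT, a ratio of 1.25 (1.23 to 1.28), and *pep4*, for the protease that activates others in the vacuole, had 374.5 RPKM in Δ*gul-1* and 324.9 RPKM in WT, a ratio of 1.15 (1.13 to 1.18). The aminopeptidase Lap4 (NCU04192) had a ratio of 0.883 (0.844 to 0.924). Of 12 Rab and Ypt genes 8 passed the floor, of 6 phosphoinositide genes 4, and of 4 further VPS genes 3, and in none of these lists did a gene past the floor reach 1.5-fold in either direction. Among the Rab and Ypt genes past the floor, the ratios farthest from 1 were 1.24 (1.18 to 1.30) for YPT52 (NCU06410) and 0.867 (0.804 to 0.936) for a prenylated Rab acceptor (NCU11237). Among the phosphoinositide genes past the floor they were 1.23 (1.18 to 1.28) for a phosphatidylinositol-3-phosphate kinase (NCU02083) and 1.17 (1.13 to 1.21) for the gene annotated tor2 (NCU05608). The tor2 gene is in this list only through the words phosphatidylinositol 3-kinase in its annotation. Among the VPS genes past the floor they were 1.21 (1.13 to 1.30) for NCU06435 and 1.16 (1.08 to 1.25) for NCU05273, a gene of the Vps52/Sac2 family. Ypt7 (NCU03711), the Rab of vacuole fusion on which Mon1 acts in yeast, had a ratio of 1.15 (1.09 to 1.22). The SNARE and syntaxin genes, which drive membrane fusion, had 1 of 14 past the floor at least 1.5-fold higher, against 10.8% of all genes. None was lower by as much, against 5.76%. The higher gene was NCU01199 at 1.55 (1.37 to 1.76), which overlaps NCU01198 in RefSeq and by locus number lies near the deleted *gul-1* (NCU01197). With 24.8 RPKM in Δ*gul-1* and 15.9 RPKM in WT, it passed the floor only through the library in which it was high. The next highest ratio was 1.39 (1.33 to 1.45), of the gene for a SNARE-dependent exocytosis protein (NCU09432).

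In the list of adaptors, dynamin and the actin patch 23 of 26 genes passed the floor. At least 1.5-fold higher were 2 of them, against 10.8% of all genes, and none was lower by as much, against 5.76%. The beta subunit of AP-2 (NCU05232), an adaptor that in animals links clathrin to cargo at the plasma membrane, had 54.4 RPKM in Δ*gul-1* and 32.4 RPKM in WT, a ratio of 1.68 (1.59 to 1.77). SLA1 (NCU02978), which in yeast couples the endocytic coat to actin, had 81.3 RPKM in Δ*gul-1* and 50.04 RPKM in WT, a ratio of 1.62 (1.56 to 1.69). The clathrin genes themselves had ratios of 0.979 and 0.930, given above.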

How the data were processed

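Mycelia of Δ*gul-1* and WT were sequenced, 1 library per strain. Per the submitters' processing notes and the methods of the study, the authors mapped reads to the predicted transcripts of *N. crassa* genome version 12 with TopHat2 2.0.8b and counted reads unique to 1 gene with HTSeq 0.5.4p2. The deposited counts are raw reads per gene. The deposited RPKM scale those reads to exon length and to the assigned total. The ratio of the RPKM was equal to that of reads over the total, with a largest relative gap of 4.3e-15. A column of NOISeq probabilities from the authors was not used.

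The ratio of Δ*gul-1* to WT was taken with no pseudocount, over genes above 20 RPKM in at least 1 library. Exact 95% Clopper-Pearson intervals were conditional on the reads of both libraries. They cover counting error only, and for these genes the median half-width was 0.08 on the log2 scale, a factor of 1.06. Calls were made over the whole table. The interval was tested on simulated counts for this comparison, which cannot show the spread between cultures. In the alternatives, scaling was by TMM (edgeR 4.0.16 in R 4.3.3), by median-of-ratios size factors or by the total without the 50 most abundant genes, floors were 5, 50 or none, and the pseudocount was 1 RPKM. The 1.25-fold call, the intervals against the median of all genes, the autophagy genes outside the rule and the split by overlapping genes were added after the data were seen. The members and lists were chosen with earlier results of these data known. Roles were assigned from annotation and symbol. In each role group the most abundant gene and up to 4 genes with the largest log2 ratios in size past the floor were given in full, as was *gul-1*, and in related lists the 2 largest; any other gene was chosen with its value known. Positions and symbols came from RefSeq for assembly NC12, where 9729 of 9730 loci matched. Intervals came from scipy 1.17.1 and tables from pandas 2.3.3 and numpy 2.4.6, run in Python 3.11.15.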

Additional observations from a re-analysis of the deposited data

How the results depend on the processing

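The counts of 0 at 2-fold and at 1.5-fold, higher or lower, were 0 under every scaling, floor, pseudocount and choice of members that was run. The 7 genes 1.25-fold higher (23.8% of all genes) became 1 with TMM (14.9% of all genes) and 1 with median-of-ratios scaling. They became 4 with the total without the 50 most abundant genes and 4 where the whole counting interval had to lie beyond the fold. The 3 genes 1.25-fold lower (11.5% of all genes) became 5 with TMM (19.5% of all genes) and 5 with median-of-ratios scaling. They became 0 at a floor of 50 RPKM, where the genes concerned are under the floor, and 0 where the whole interval had to lie beyond the fold. Shares of all genes under the settings other than the deposited scale and TMM are not given here. The counts under those settings are therefore not set against genes at large. The median log2 ratio of 0.088 became -0.062 with TMM and -0.062 with median-of-ratios scaling, which shift all genes alike, and its distance of -0.02 from the median of all genes did not move. These same scalings moved 56 of the 64 single genes by more than their counting interval and turned the sign of 23. The pseudocount moved none. No paired analysis was possible because each strain has 1 library and the labels give no replicate numbers, and no library could be left out for the same reason. Differences between single cultures of 1 strain may be as large as those described, and the files hold nothing that measures them.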

Other observations

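A vacuolar gene outside the word rule, *cax* (NCU07075), for the calcium exchanger that loads calcium into the vacuole in *N. crassa*, had 2815 reads (51.4 RPKM) in Δ*gul-1* and 4933 reads (89.6 RPKM) in WT. Its ratio of 0.574 (0.548 to 0.601) was lower than that of any of the 64 genes and lower than the 0.857 of the calcium/H+ exchanger gene NCU07711 among them. The gene was looked up after its value was known.

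Within the AP-2 adaptor, the beta subunit gene at a ratio of 1.68 stood apart from the genes of its partners. The alpha subunit (NCU03440) had 25.3 RPKM in Δ*gul-1* and 25.3 RPKM in WT, a ratio of 0.998 (0.939 to 1.06). The sigma (NCU07989) and mu (NCU09673) subunits had ratios of 0.983 (0.876 to 1.102) and 0.970 (0.886 to 1.06). In animals the beta subunit is the one that binds clathrin. AP-1 beta (NCU09721) had a ratio of 0.962 (0.911 to 1.02) and AP-3 beta (NCU06569) one of 1.22 (1.13 to 1.32). The comparison was chosen after the values had been seen, and with 1 library per strain it was not tested.

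The SNARE domain gene NCU01199 had a ratio of 1.55 with 650 reads in Δ*gul-1* and 421 in WT. It passed the floor through Δ*gul-1* alone. In RefSeq it overlaps NCU01198, and by locus number it lies near the deleted *gul-1* (NCU01197). Any bearing of the overlap or the deletion on its ratio was not tested. The Ypt gene annotated yptV5 (NCU08271), under the floor, had a ratio of 1.61 (1.45 to 1.80) with 862 reads in Δ*gul-1* and 537 in WT. Both were larger than the largest ratio among the 64 genes, 1.42.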
